A study of Homo sapiens with 6 samples.

Results

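The microRNA host and neighbouring transcripts VMP1, MIR222HG, MIR663AHG and LINC-PINT were examined in eCLIP peak lists from HEK293T cells, a human embryonic kidney line. A peak was taken as a member when its midpoint lay, on the same strand, inside one of these 4 of 58780 annotated genes. This gave 21 of 270 peaks for G4PID and 1 of 3660 peaks for SF3B4. The genes were chosen by the presence of G4PID peaks in these same lists, so the number and height of their peaks are a description and were not tested. A same-strand G4PID midpoint lay in 136 of all annotated genes (0.231%) and an SF3B4 midpoint in 2054 (3.49%). VMP1, MIR222HG and MIR663AHG had 7, 5 and 3 G4PID peaks, and LINC-PINT had 6.

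The series held 6 libraries in 3 groups of 2. G4PID is an artificial biotin ligase targeted to G-quadruplexes, folds of guanine-rich nucleic acid, and its libraries were made with an anti-HA antibody. The SF3B4 libraries were made with an antibody to SF3B4, a subunit of the U2 small nuclear ribonucleoprotein that contacts introns near the branch point, and the input libraries had no antibody. The protocol text common to all samples describes transient transfection with pIRES2-G4PID-EGFP or pIRES2-miniTurboID-EGFP, 24 h of culture, then 500 µM biotin for 30 min. It does not say which plasmid, if any, the SF3B4 and input cells received, nor whether replicates are separate cultures. The deposited files give 1 list per antibody with 1 value per peak, so no spread between libraries can be given and read depth is unknown. In bulk samples such as these, fewer cells of a type and less RNA per cell cannot be told apart, and the lists hold neither the level of a host RNA nor markers by which to check the cell line. Each peak carries 2 values of the authors, read from their order and range as the −log10 p and the log2 fold over input. The fold serves here only to describe or rank peaks within a list.

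MicroRNAs are cut from long primary transcripts. Drosha with DGCR8 releases a hairpin in the nucleus, Dicer trims it to a short duplex, and 1 strand guides Argonaute to target messages mainly through its seed, bases 2 to 8. The hosts studied here differ in kind. VMP1 encodes an endoplasmic reticulum protein of autophagy, and the miR-21 hairpin lies beyond its coding region on the same strand. MIR222HG is the noncoding precursor of miR-221 and miR-222, MIR663AHG is that of miR-663a, and LINC-PINT is a p53-induced long noncoding RNA whose shorter annotated form includes the miR-29b-1 hairpin and ends at that of miR-29a.

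The mature microRNAs of these hosts are shown because the distances below run to their genes. They are taken from RefSeq (GRCh38.p14), 5′ to 3′, with the seed in capitals. The 3p forms of miR-221 and miR-222 share 1 seed and those of miR-29a and miR-29b share another. The seeds of miR-21-5p and miR-663a match no other form printed here, and microRNAs of other genes were not compared.
hsa-miR-21-5p: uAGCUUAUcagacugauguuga
hsa-miR-221-3p: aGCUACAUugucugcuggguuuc
hsa-miR-222-3p: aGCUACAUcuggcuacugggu
hsa-miR-663a: aGGCGGGGcgccgcgggaccgc
hsa-miR-29a-3p: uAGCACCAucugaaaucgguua
hsa-miR-29b-3p: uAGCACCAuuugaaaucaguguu

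Of the 21 G4PID peaks, 4 had their midpoint within 1000 nt of a microRNA gene on the same strand: 2 in VMP1, 1 in MIR222HG and 1 in MIR663AHG. Across the whole G4PID list, members included, 8 of 270 peaks did (2.96%), so these genes held 4 of the 8. Since the genes were chosen as microRNA hosts with G4PID peaks, this nearness is a description and was not tested. The only SF3B4 member lay within 1000 nt too, as did 76 of 3660 SF3B4 peaks (2.08%). The remaining G4PID peaks were farther upstream, up to 21970 nt in MIR222HG and 33794 nt in LINC-PINT. Every G4PID midpoint except 2, the one inside MIR222 and one 3′ of MIR663A, lay 5′ of its nearest microRNA gene.

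**Figure D1:**
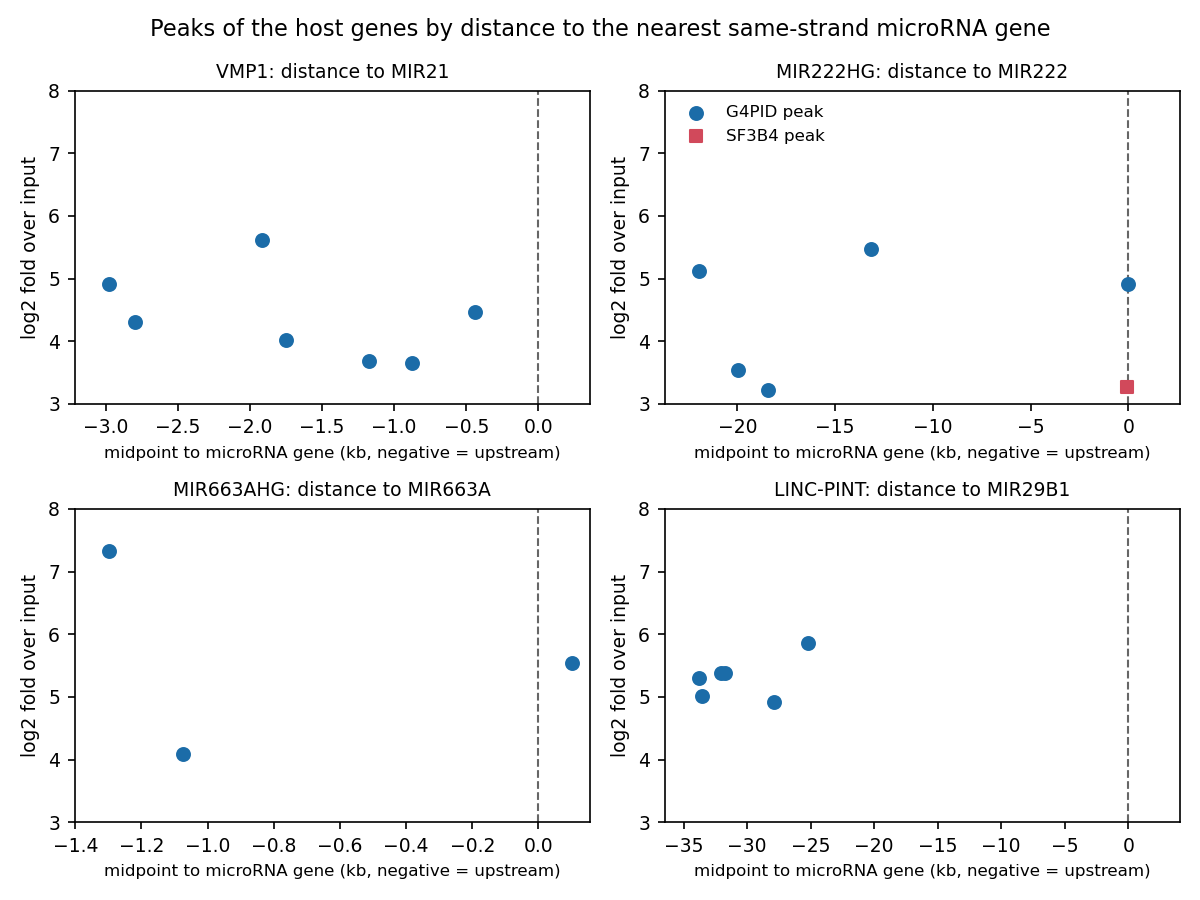
Each panel plots, for 1 gene, the authors' log2 fold over input of each peak (vertical axis) against the distance in kb from its midpoint to the nearest same-strand microRNA gene (horizontal axis, negative upstream, dashed line at the gene, own scale per panel). Circles are G4PID peaks and the square is the SF3B4 peak, which stands below the G4PID circle at MIR222.

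MIR222HG (ENSG00000270069.1, chromosome X, 45745211 to 45770274, minus strand) was the gene where both lists met. Its G4PID peaks stood, from 5′ to 3′, at log2 folds of 5.12, 3.54, 3.22, 5.46 and 4.92 and at −log10 p values of 6.76, 6.99, 5.24, 8.76 and 5.78. The fold did not run in order along the RNA: the lowest and the highest were neighbours in the long intron. The peaks spread over 22081 nt, which is 88.1% of the gene. The peak nearest the 3′ end, at 45747033 to 45747058, lay inside the MIR222 hairpin gene (45747015 to 45747124). It was 26 nt wide and covered all 21 nt of mature miR-222-3p, reaching 2 nt past its 5′ end and 3 nt past its 3′ end. Of the 270 G4PID peaks only this 1 overlapped a mature microRNA of the RefSeq table. In the SF3B4 list 12 of 3660 peaks did, none of them in the 4 genes. The hairpin is printed with the peak in capitals, which mark its bases 67 to 92.
MIR222, chrX:45747015-45747124, minus strand: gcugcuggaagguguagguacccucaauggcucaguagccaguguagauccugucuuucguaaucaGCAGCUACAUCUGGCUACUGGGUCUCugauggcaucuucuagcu

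The capitals take in the 3′ arm, which holds miR-222-3p, and leave out the 5′ arm with miR-222-5p. Among annotated transcripts of other genes the 26 bases had 1 match at 90% identity or more over at least 80% of their length, antisense to KCNMA1 at 91.3%. The sister hairpin MIR221, 780 nt downstream of this midpoint, held no peak of either list.

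The SF3B4 peak lay at 45747124 to 45747236, with a log2 fold of 3.27 and a −log10 p of 7.78. It ended on the first base of the MIR222 hairpin, so that it covered the 112 nt just upstream and 1 nt of the hairpin. The gap to the G4PID peak was 65 nt, and the other G4PID peaks of the gene were 13045 nt or more away. By fold it ranked 3130 of 3660, and 11 SF3B4 peaks carried exactly this pair of fold and p. The 3′ splice site of the intron that holds it was 1080 nt downstream of its midpoint. SF3B4 peaks commonly sit 10 to 60 nt upstream of such a site (2587 of 3631 peaks in genes with one, 71.2%), and this one did not.

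**Figure D2:**
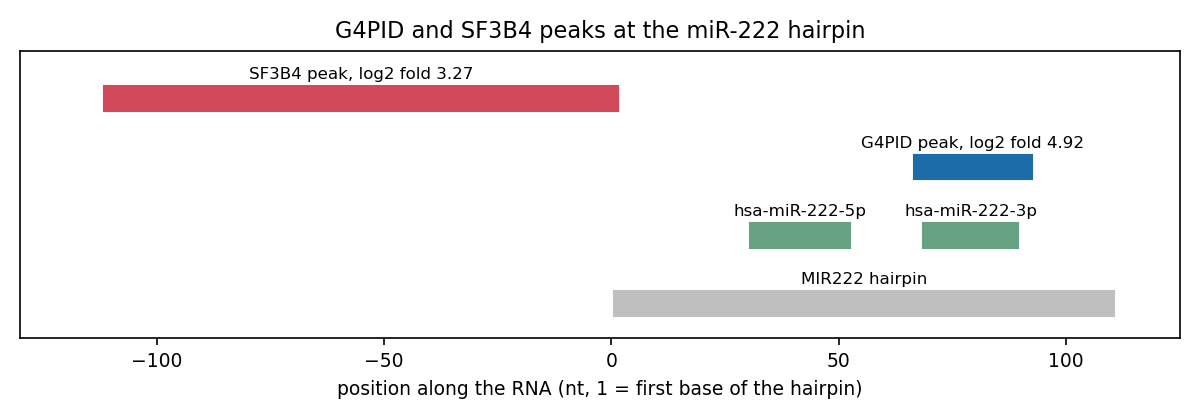
Position along the RNA in nt (horizontal axis, 1 is the first base of the hairpin) of the MIR222 hairpin, both mature arms, the G4PID peak and the SF3B4 peak, drawn to scale as bars. The G4PID bar spans the 3p arm and the SF3B4 bar ends where the hairpin begins.

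The other 4 G4PID peaks of MIR222HG lay 21970, 19980, 18451 and 13186 nt upstream of MIR222, at 45769075 to 45769113, 45767068 to 45767139, 45765559 to 45765590 and 45760282 to 45760338. All 5 midpoints were inside the 23685 nt intron of the longer annotated form, MIR222HG-201. The first was also within an exon of the short form MIR222HG-202, 692 nt into that intron. Its sequence is shown because it is the only exonic stretch of this noncoding host under a peak.
MIR222HG peak 1, chrX:45769075-45769113, minus strand: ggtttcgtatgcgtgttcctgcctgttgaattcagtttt

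VMP1 (ENSG00000062716.12, chromosome 17, 59707192 to 59842255, plus strand) is annotated over 135064 nt, and its 7 G4PID peaks fell within 2595 nt at the 3′ end (1.92% of that length). The first midpoint stood 131097 nt from the gene start. In 5′ to 3′ order the log2 folds were 4.92, 4.30, 5.61, 4.02, 3.68, 3.65 and 4.46, and the midpoints lay 2977, 2799, 1916, 1748, 1175, 874 and 438 nt upstream of MIR21. The −log10 p values were 5.78, 6.92, 9.76, 5.51, 7.89, 10.1 and 7.88. The highest fold was in the last intron and the highest −log10 p in the 3′UTR, where the fold was the lowest of the 7. No G4PID peak lay in or past the hairpin. No SF3B4 peak was listed in VMP1.

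The peaks lay on both sides of exon borders of the spliced message. In the coding transcript VMP1-201, 4 midpoints were intronic and 3 were in the 1184 nt 3′UTR, while the stretch of 174 nt from its end to MIR21 held none. The first peak (59838250 to 59838327) crossed the 3′ splice site of the penultimate exon, with 45 nt in the intron and 33 nt in the exon. The next 3 (59838448 to 59838485, 59839327 to 59839372 and 59839501 to 59839534) lay in the 1370 nt last intron. Those in the 3′UTR were at 59840061 to 59840121, 59840366 to 59840417 and 59840811 to 59840844. One annotated transcript, the retained-intron form VMP1-216 (59837931 to 59842255), covered all 7 peaks within its single exon and includes MIR21. All 7 midpoints also lay within the span of VMP1-201. The peaks therefore cannot be given to the unspliced or spliced RNA of VMP1-201 or to VMP1-216. The 3 peaks of the last intron are printed from VMP1-216, since they lie outside the spliced message. Their bases were 7.89 to 17.4% G and 26.3 to 35.3% C, with 0 runs of GGG. The first peak, which crosses into the exon, was 20.5% G and had 1 such run.
VMP1 peak 2, chr17:59838448-59838485, plus strand: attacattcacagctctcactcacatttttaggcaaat
VMP1 peak 3, chr17:59839327-59839372, plus strand: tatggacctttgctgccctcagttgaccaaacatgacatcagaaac
VMP1 peak 4, chr17:59839501-59839534, plus strand: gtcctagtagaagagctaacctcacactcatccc

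**Figure D3:**
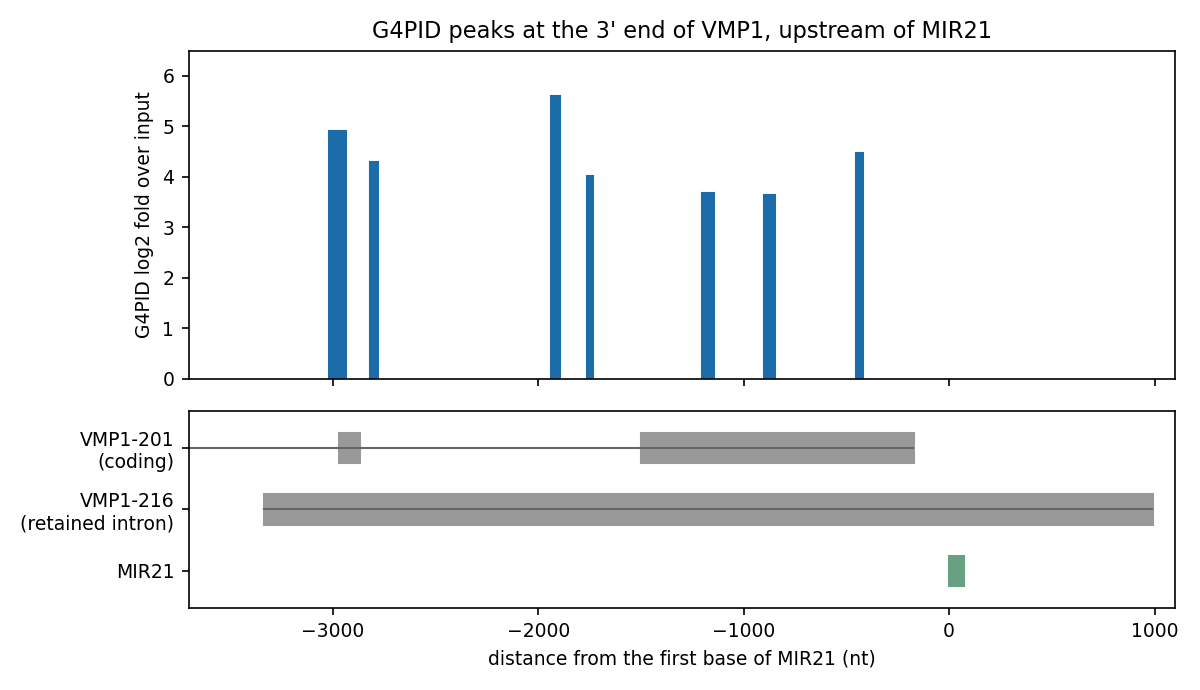
The upper panel plots the authors' log2 fold (vertical axis, from 0) of the 7 G4PID peaks of VMP1 against the distance in nt from the first base of MIR21 (horizontal axis), and the lower panel draws the exons of VMP1-201 and VMP1-216 and the MIR21 hairpin on the same scale. Peaks lie over the last intron, the 3′UTR and the 3′ splice site of the penultimate exon of VMP1-201, and all within VMP1-216.

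MIR663AHG (ENSG00000227195.10, chromosome 20, 26186920 to 26251526, minus strand) held the highest member peak. From 5′ to 3′ its 3 G4PID peaks had log2 folds of 7.32, 4.10 and 5.54 and −log10 p values of 15.7, 41.2 and 9.26. The first (26209543 to 26209608) ranked 4 of 270 by fold, while the second (26209298 to 26209405) ranked only 209 but had the largest −log10 p of all members. They lay 1298 and 1074 nt upstream of MIR663A (26208186 to 26208278). The last of the row (26208063 to 26208105) began 81 nt past the 3′ end of the hairpin and was the only member peak downstream of a microRNA. No SF3B4 peak was listed in the gene.

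The MIR663AHG peaks lay among annotated transcript starts. Of its 37 transcripts, 30 start downstream of the first peak and 0 inside it, while 4 start inside the second and 2 inside the last. The second lay whole within the first exon of an annotated transcript outside the basic set, MIR663AHG-223 (exon 26209264 to 26209462). It was also 65 to 172 nt upstream of the RefSeq start, within the 300 nt promoter window of RefSeq (GRCh38.p14). That window is printed with the peak in capitals.
MIR663AHG promoter, chr20:26209184-26209483, minus strand: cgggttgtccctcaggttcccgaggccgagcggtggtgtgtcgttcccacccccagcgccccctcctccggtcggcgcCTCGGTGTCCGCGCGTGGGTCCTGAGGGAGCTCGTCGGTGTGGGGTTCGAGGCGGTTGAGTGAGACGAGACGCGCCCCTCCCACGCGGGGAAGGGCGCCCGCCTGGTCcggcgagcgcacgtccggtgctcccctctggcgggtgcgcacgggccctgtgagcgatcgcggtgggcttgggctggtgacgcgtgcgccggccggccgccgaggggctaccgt

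The capitals were 43.5% G and 73.1% G or C, with 5 runs of GGG or longer, more than in the other member peaks whose bases were known, which had 0 or 1. The hairpin, which lies between the second peak and the last, was also rich in G and C (76.3%), and it is printed with mature miR-663a (bases 15 to 36) in capitals.
MIR663A, chr20:26208186-26208278, minus strand: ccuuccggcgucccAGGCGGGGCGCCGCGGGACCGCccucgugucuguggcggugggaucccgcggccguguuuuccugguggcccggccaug

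LINC-PINT is annotated as 2 gene models on the minus strand of chromosome 7. All 6 G4PID peaks were in the shorter one (ENSG00000226380.9, 130876809 to 130913310), and the longer one (ENSG00000231721.7, 130938963 to 131110176) had none. Log2 folds from 5′ to 3′ were 5.30, 5.02, 5.39, 5.39, 4.92 and 5.86, and −log10 p values were 7.76, 6.27, 8.26, 8.26, 5.78 and 11.8. The folds spanned a narrower range than in each of the other 3 genes. The peaks lay at 130911303 to 130911362, 130911082 to 130911144, 130909586 to 130909648, 130909254 to 130909313, 130905424 to 130905461 and 130902718 to 130902789. The midpoints fell in the first 10556 nt of the gene, in 1 intron of 27713 nt, between 777 and 9356 nt after its 5′ splice site.

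LINC-PINT stood apart from the other hosts in distance to its microRNAs. The nearest gene downstream was MIR29B1 (130877459 to 130877539), 25215 to 33794 nt away, and MIR29A follows it. A second long noncoding gene of the same strand, AC016831.6, also spans all 6 peaks, so they cannot be given to one or the other, and LINC00513 runs over them on the opposite strand. No SF3B4 peak was listed there. The 3′ part of the gene, where MIR29B1 lies, held no G4PID peak. MIR29A (130876747 to 130876810) lies past the 3′ end of the gene but for 2 nt.

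A quadruplex motif was searched as 4 runs of GGG or longer with 1 to 7 bases between runs, on both strands. The bases of 10 of the 21 G4PID peaks were known from annotated transcripts or RefSeq tables, and 0 of these held it on either strand. Every VMP1 peak was among the 10, so the other hosts weigh little in this count. With 50 nt added on both sides 9 could be read, and again 0 held it. The 6 LINC-PINT peaks, the first MIR663AHG peak and 3 of MIR222HG had no known base, and the MIR663AHG peak past the hairpin was known in part. The promoter windows of VMP1, MIR222HG and MIR663AHG and the one of LINC-PINT upstream of its shorter model lacked it on both strands. It was in sense in 3 windows at annotated starts of the longer LINC-PINT model, where no peak was listed. The windows at 131109867 to 131110166 and 131109876 to 131110175 overlap, so they are not separate places. Over 35116 RefSeq promoter windows of 300 nt, 14.4% held it in sense and 13.1% in antisense. These shares are for the promoter windows only, which are longer than the peaks. The share among the other G4PID peaks was not sought. No match says only that these letters are absent from these windows.

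Within the G4PID list these peaks were of middling height. Their median log2 fold was 4.92, the same as that of all 270 peaks, and 10 of 21 were above it. Their median −log10 p was 7.88 against 9.79 for the list, and their widths ran from 26 to 108 nt with a median of 57 nt against 61 nt. Each gene's peaks stood alone on their strand: the nearest G4PID peak outside VMP1 was 9617832 nt away, outside MIR222HG 108247669 nt and outside the shorter LINC-PINT model 27071122 nt. The minus strand of chromosome 20 held no G4PID peak outside MIR663AHG. By the basic transcript set 17 midpoints were intronic, 3 in the VMP1 3′UTR and 1 in a noncoding exon. By all annotated transcripts only 12 were intronic. The same pair of fold and p recurred in several genes: 4.92 with 5.78 was the value of 10 G4PID peaks, among them the first of VMP1, the miR-222 peak and 1 in LINC-PINT. LINC-PINT peaks 3 and 4 shared 5.39 with 8.26, the value of 11 peaks in the list. In all, 16 of the 21 peaks shared both values exactly with another G4PID peak.

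**Figure D4:**
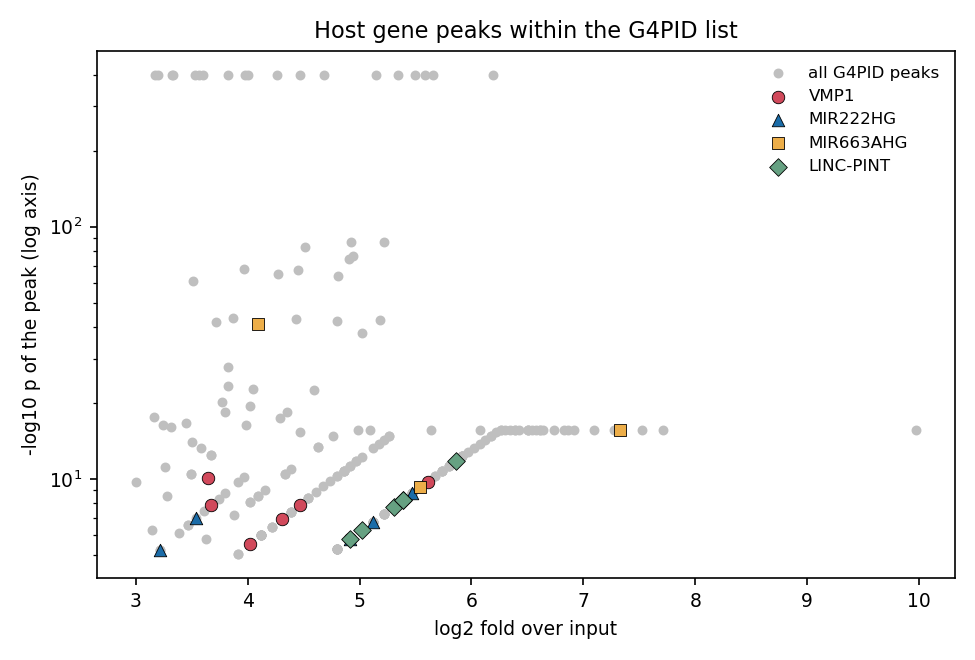
The −log10 p of each G4PID peak (vertical axis, logarithmic) is plotted against its log2 fold over input (horizontal axis), with all 270 peaks in grey and the 21 member peaks marked by gene. Of the member peaks 13 lie on the rightmost of several rows of points, which levels off at 15.7, and the MIR663AHG peak at 7.32 lies to the right of all other member peaks.

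Other annotated microRNA hosts were also in the lists. Of 1108 coding or long noncoding genes that hold a microRNA gene on their strand, 21 had a G4PID midpoint (1.9%, the 4 genes included) and 168 an SF3B4 midpoint (15.2%), and 6 had both. Over all annotated genes the shares were 0.231% and 3.49%. The 1108 hosts have a median length of 59132.5 nt against 3222 nt for all genes. Among those with a G4PID midpoint, LINC-PINT and AC016831.6 are counted separately for the same 6 peaks. Outside the 4 genes, 4 G4PID peaks lay within 1000 nt of a microRNA gene. These included peaks in MTRNR2L8 beside MIR4485 (4.92) and in EIF4A2, a translation initiation helicase, beside MIR1248 (4.43). The others were at 2 places in FP671120.1 beside MIR3648-1 (4.09) and MIR3687-1 (4.05). The EIF4A2 midpoint also lay in RF00092, another gene of that strand. Copies of these sequences elsewhere were not sought, so reads with several matches may bear on them. Of the 75 SF3B4 peaks near microRNA genes outside the 4 genes, 60 were 10 to 60 nt upstream of a 3′ splice site. Among the highest of them in host genes were those in PABPC1 (6.22), KHSRP (5.88), FAM50A (5.37) and IPO9 (5.24).

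Of 21 further noncoding hosts listed by name, 0 had a G4PID peak and 3 had SF3B4 peaks, where all annotated genes had a G4PID midpoint in 0.231% and an SF3B4 midpoint in 3.49%. At that G4PID share, 0 in a list this short is near the background. Among all 1108 microRNA hosts the SF3B4 share was 15.2%, and 3 of 21 is near it. MIR17HG, precursor of the miR-17 to miR-92a cluster, had 10 SF3B4 peaks (highest log2 fold 4.86). DLEU2, host of miR-15a and miR-16-1, had 2 (3.88) and MIR503HG had 1 (3.79). Of 20 genes for microRNA processing and Argonaute function, 0 had a G4PID peak and 10 had SF3B4 peaks, against the same 0.231% and 3.49% of all genes. These were 45 SF3B4 peaks in all, of which 36 were 10 to 60 nt upstream of a 3′ splice site. The 20 genes were not matched to all annotated genes for type, length or RNA level, and the difference in share was not tested. The genes with the highest folds were DDX5, a helicase of the Drosha complex (6.09), HNRNPA1, which binds some primary microRNAs (5.97), KHSRP (5.88) and DGCR8 (5.53, 11 peaks). A gene with no peak in these lists is not shown to be unbound.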

How the data were processed

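The series comprised eCLIP libraries of G4PID, SF3B4 and input from HEK293T cells. The tools named are cutadapt 3.4 and STAR 2.7.0d, and both hg19 and hg38 appear as builds, per the submitters' processing notes. The sources used here do not give the method of peak calling, filtering, joining replicates or placing reads with several matches. For each antibody the authors deposited 1 peak list without header, on hg38 by its name, holding a −log10 p and a log2 fold over input per peak. This reading rests on column order and range.

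Positions were compared with GENCODE 29 of the same build. Distances run from the peak midpoint to the nearest gene of type miRNA on its strand, signed along the RNA. Region classes came from the basic transcripts. Bases were read from GENCODE transcripts and RefSeq tables (GRCh38.p14), with 0 disagreeing bases. Copies were sought with BLAST 2.17.0 only for member peaks whose bases were known, and only among annotated transcripts, not the whole genome. Distance code was tested on simulated data. The members and lists were chosen with earlier results of these data known, and no test was run. Named peaks are all peaks of the 4 genes, and named other genes are those with the highest fold near a microRNA gene or in the named lists; 1 of them is not reported here. Python 3.11.15, numpy 2.4.6 and matplotlib 3.10.9 were used.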

Additional observations from a re-analysis of the deposited data

How the results depend on the processing

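Counting any overlap, either strand or the basic transcript span left 21 G4PID and 1 SF3B4 peak in the 4 genes. A log2 fold of at least 4 left 17 G4PID and 0 SF3B4 peaks, and a −log10 p of at least 10 left 4 G4PID peaks (1 in VMP1, 2 in MIR663AHG, 1 in LINC-PINT) and 0 SF3B4 peaks. Neither peak at MIR222 passed that limit. Within 5000 nt of a microRNA gene lay 11 G4PID peaks in place of 4, and within 500 nt 3. The SF3B4 peak stayed near MIR222 at each distance tried and away from 3′ splice sites in each window tried. The closest G4PID and SF3B4 midpoints were 134 nt apart. No paired analysis was possible because the lists carry no value per library. Libraries could not be left out for the same reason.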

Other observations

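The linear folds of the G4PID list often fell on multiples of a common step. The step of 2.32 is the smallest gap between linear folds above a log2 fold of 4.9 that at least 5 peaks share. In units of it, 161 of 270 linear folds were whole multiples to within 0.02. Of the 21 peaks in the 4 host genes 16 were whole multiples, and 13 of them lay on the rightmost row of the plot of −log10 p against fold, where no peak of equal or higher fold has a smaller −log10 p. On that row the miR-222 peak, the first VMP1 peak and LINC-PINT peak 5 stood at 13 steps, LINC-PINT peak 6 at 25 and the highest MIR663AHG peak at 69. What a step stands for was not tested. The −log10 p of 15.7 of the highest MIR663AHG peak was shared by 29 peaks of the list.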
